A study of Mus musculus with 11 samples.

Results

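The 8 genes described here, Tspan18, Slc9a4, St6galnac5, Mdga1, Nnat, Myl4, Coch and Impg1, were chosen on their measured difference between 1b-/- and WT hippocampus in the homozygous round of RNA-seq, from 23644 genes held by both count tables. They were picked from outside the usual cell type marker lists, and no size threshold was set. That difference is therefore given as a description with no test. The tests on the 8 genes were made in the 7 libraries of the heterozygous round, whose differences were not the stated ground of the choice. Earlier results of these data were known when the genes were chosen, so those tests may not be independent of it.

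The mice carried a deletion of 1b, a conserved non-coding interval of Scn1a that holds one of its promoters, made with Cas9 in C57BL/6N mice and kept as 1 germline line. Scn1a encodes the sodium channel NaV1.1. The homozygous round held 2 WT libraries, both female, and 2 1b-/- libraries, a male (replicate 1) and a female (replicate 2), read single-end. The heterozygous round held 3 WT libraries, all male, and 4 1b+/- libraries, 3 male and 1 female (replicate 4), read paired-end with longer reads. The labels name no treatment, the deletion is present in every cell of the animal, and tissue was microdissected hippocampus from mice that the labels call adult and the study's methods place at P32. Totals ran from 20667122 to 36145161 counts per library. Nothing in the labels says that libraries came from separate litters, so p-values measure the spread between these mice.

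Most of these genes encode proteins of the membrane or of the space outside the cell. Tetraspanins gather partner proteins in the plasma membrane, Slc9 proteins exchange sodium for protons, and sialyltransferases cap the sugar chains of lipids and proteins with sialic acid. MDGA proteins bind neuroligins and block their contact with neurexins across the synapse. In the hippocampus, granule cells of the dentate gyrus and pyramidal cells of CA1 to CA3 each express their own gene sets, and the striatum and basal forebrain lie nearby with others.

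The 2 WT libraries of the homozygous round stood apart from the other 9 on several lists of brain region markers. Every value of the homozygous round below rests on them. Summed CPM (counts scaled to library size, here over all 11 libraries) of 13 genes of striatal medium spiny neurons was 8633 in WT replicate 1 and 3605 in WT replicate 2 of that round, against 344 to 613 in the other 9 libraries. Summed CPM of 6 genes of basal forebrain cholinergic neurons was 102 and 43.5 in these WT libraries, against 1.76 to 11.7 elsewhere. The 6 CA3 pyramidal genes summed to 84.5 and 109 CPM there, against 235 to 361 in the other 9, and the 7 CA1 genes to 348 and 403, against 753 to 1127. The 5 CA2 genes summed to 1103 and 667 CPM there, against 233 to 539, but did not move together. Pcp4, the largest part of that sum, averaged 660 CPM in homozygous-round WT against 88.5 to 137 in the other groups. Rgs14 (49.3 against 57.6 to 160) and Amigo2 (9.22 against 18.7 to 27.8) were lower there. The 8 neocortical genes summed to 374 and 538 CPM against 189 to 359, but did not move together either. Lamp5, the largest part of that sum, averaged 179 CPM in homozygous-round WT against 41.1 to 58.6 in the other groups. Fezf2 (25.8 against 31.1 to 46.7) was lower there. Dentate, CA1 and CA3 genes were thus detected in every library labelled hippocampus, but the 2 homozygous-round WT libraries held less of them and more of the striatal and cholinergic genes than the other 9. Choroid plexus genes varied from library to library within all groups but the heterozygous-round WT, from 55.2 to 3486 in homozygous-round WT and from 65.0 to 13490 in 1b-/-. The 6 thalamic genes were uneven within both groups of the heterozygous round. They summed to 466 CPM in its WT replicate 1 and to 337 and 206 CPM in 1b+/- replicates 4 and 3. All other libraries ran from 94.2 to 126 CPM on this list. In bulk tissue, fewer cells of a type and less RNA per cell cannot be told apart, and whether region content set the values of the 8 genes was not tested.

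**Figure D1:**
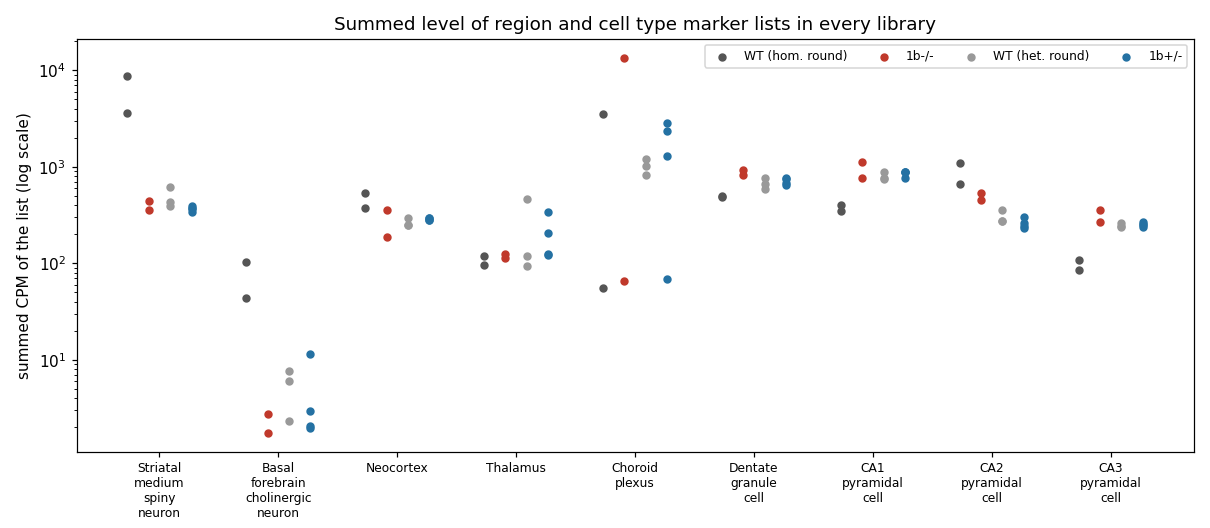
Summed CPM of each region or cell type marker list (x axis) in every library, on a log y axis, with 1 point for each library and colours for the 4 groups. The homozygous-round WT points lie highest for the striatal and cholinergic lists and lowest for the dentate, CA1 and CA3 lists. They also lie highest for the neocortical list, where Lamp5 is the largest part of their sum, and for the CA2 list, where Pcp4 is. The genes of these lists did not all move the same way. Choroid plexus spreads within groups, and the thalamic list within both groups of the heterozygous round.

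Scn1a itself was lower in 1b-/-, at 21.5 ± 6.81 CPM (SD, n = 2) against 153 ± 27.5 in its WT (n = 2), a log2 fold change of -2.83 (SE 0.27, edgeR quasi-likelihood test, adjusted p = 0.0211). In 1b+/- it was 97.7 ± 15.5 CPM (n = 4) against 136 ± 31.0 (n = 3), a log2 fold change of -0.47. That did not pass (edgeR quasi-likelihood test, adjusted p = 0.303). The study, with its own edgeR fit, reported Scn1a as significantly lower in both genotypes at P32, and it called genes in the heterozygous comparison. The homozygous call was lost without either WT library, with adjusted p = 0.101 and 0.0601.

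The annotated positions are on mm9. Tspan18 (minus strand) occupies chr2:93041917-93174662 under 2 gene identifiers and Nnat (plus strand) chr2:157385814-157388258, which puts them 26.9 and 91.3 Mb from Scn1a on the same chromosome. The other 6 genes are on other chromosomes. These are Slc9a4 at chr1:40637072-40687576, St6galnac5 at chr3:152480045-152645210, Mdga1 at chr17:29964901-30107032, Myl4 at chr11:104411977-104457067, Coch at chr12:52694361-52706760 and Impg1 at chr9:80161137-80359045. Nnat lies wholly inside Blcap on the opposite strand, and St6galnac5 overlaps Pigk on the opposite strand, so their counts are uncertain if strand was not used in counting.

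Promoter sequence was held for 5 of the 8 genes, Mdga1, Nnat, Myl4, Coch and Impg1, in the RefSeq table built on GRCm38.p6. The 250 bases before the start are shown for 2 of them, Coch and Impg1, which are among the 3 genes with lower counts in 1b-/-. Each had 1 exact match on its chromosome of mm9, Coch at chr12:52694078-52694327 on the plus strand and Impg1 at chr9:80359046-80359295 on the minus strand. Capitals mark a GC box (GGGCGG) in Coch and an E-box (CAGCTG) in Impg1, read on both strands.
Coch: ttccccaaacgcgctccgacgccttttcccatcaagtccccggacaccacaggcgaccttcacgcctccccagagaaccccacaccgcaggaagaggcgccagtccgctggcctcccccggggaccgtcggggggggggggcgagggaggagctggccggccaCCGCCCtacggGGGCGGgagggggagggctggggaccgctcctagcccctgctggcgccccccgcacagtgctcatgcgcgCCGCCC
Impg1: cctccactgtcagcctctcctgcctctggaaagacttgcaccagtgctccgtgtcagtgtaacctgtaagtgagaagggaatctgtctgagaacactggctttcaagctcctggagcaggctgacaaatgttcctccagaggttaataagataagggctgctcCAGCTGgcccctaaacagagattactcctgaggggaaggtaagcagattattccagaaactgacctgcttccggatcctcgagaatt

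The Coch window was 74.8% G or C with 24 CpG dinucleotides and 3 GC boxes, and the Impg1 window 50.8% with 3 CpG dinucleotides and none. Over the 32851 promoters of the table, the medians were 52.4% and 6 CpG dinucleotides. The windows of Mdga1 (70.4%, 21 CpG), Myl4 (63.6%, 23 CpG) and Nnat (54.8%, 12 CpG) were also above both medians. The RefSeq start used for Mdga1 put its window at chr17:30024828-30025077 on the minus strand, inside the span of the gene given above. Mdga1 held 1 GC box, which 32.7% of all promoters hold, and the E-box CAGCTG of Impg1 occurs in 13%. The E-box CACGTG (6.0% of promoters), the CRE TGACGTCA (1.5%), the AP-1 site TGACTCA (4.5%), CCAAT (33.8%), TATAAA (12.4%) and the EGR site GCGTGGGCG (0.5%) were also searched, each on both strands, and none was in these 5 windows. No motif was thus shared by all 5 windows, and a match in such a window is a description of the letters only.

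Among the 8 genes, 5 had higher and 3 had lower counts in 1b-/- than in the WT of its round. Their log2 differences ranked from 10th to 377th in absolute size among the 14838 genes tested, with a median absolute difference of 3.53 against 0.31 over all of them. The groups of 2 did not overlap for any of the 8, as for 59.7% of all genes tested, and nothing is read from that since this contrast chose the genes. Of all genes, 531 (3.58%) had an adjusted p under 0.05.

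Slc9a4 encodes a sodium-proton exchanger of the plasma membrane. In WT it had 2 and 5 counts, and in 1b-/- 502 and 883 counts, which is 0.0903 and 0.234 CPM against 14.3 and 27.7 CPM. The WT libraries lay near the limit of detection and the 1b-/- libraries differed from each other by more than for any other of the 5 higher genes. The log2 difference was 6.98 (SE 0.57), and leaving out a library gave 6.43 to 7.79. In the heterozygous round it stood at 11.5, 12.7 and 16.8 CPM in WT and at 11.6, 16.1, 16.3 and 13.5 CPM in 1b+/-. It was thus well detected in each WT library of that round, and the groups overlapped.

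Tspan18, a tetraspanin, stood at 4.06 and 3.89 CPM in WT and 40.1 and 39.6 CPM in 1b-/-. Replicates were nearly equal within both groups, and the log2 difference was 3.32 (SE 0.16). Libraries of the heterozygous round stood at 23.4, 27.6 and 26.6 CPM in WT and 24.8, 30.8, 27.5 and 25.8 CPM in 1b+/-. Those 2 groups overlapped and lay between the groups of the homozygous round.

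St6galnac5, which adds sialic acid to gangliosides, stood at 30.3 and 31.5 CPM in WT and 149 and 128 CPM in 1b-/-, a log2 difference of 2.16 (SE 0.14). Heterozygous-round libraries stood at 98.6, 105 and 117 CPM in WT and 121, 111, 110.3 and 105 CPM in 1b+/-. These libraries all lay above homozygous-round WT and below 1b-/-, with the 2 groups interleaved.

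Mdga1, an immunoglobulin-domain protein tethered to the outer membrane that binds neuroligins, stood at 21.95 and 23.9 CPM in WT and 91.2 and 104 CPM in 1b-/-, a log2 difference of 2.09 (SE 0.14). In the heterozygous round it stood at 65.9, 75.4 and 75.1 CPM in WT and 81.1, 79.8, 81.1 and 59.0 CPM in 1b+/-. The 3 male 1b+/- libraries were above all WT libraries, while the female one, replicate 4, was below them all.

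Nnat encodes neuronatin, a small membrane protein of the endoplasmic reticulum, and is an imprinted gene read from the paternal copy. It stood at 150.5 and 124 CPM in WT and 653 and 629.5 CPM in 1b-/-, a log2 difference of 2.22 (SE 0.16). Its values in the heterozygous round were 267, 295 and 412 CPM in WT and 292, 265, 276 and 246 CPM in 1b+/-. WT replicates 2 and 3 were above all 4 libraries of 1b+/-, and WT replicate 1 lay among them. Its host gene Blcap went from 62.2 ± 5.48 to 96.7 ± 10.9 CPM (SD, n = 2 each), a log2 fold change of 0.64 that did not pass (edgeR, adjusted p = 0.0766).

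Myl4, an essential light chain of myosin best known from atrial and embryonic muscle, stood at 27.4 and 35.1 CPM in WT and 2.50 and 2.13 CPM in 1b-/-, a log2 difference of -3.75 (SE 0.22). Its heterozygous-round values were 2.55, 2.57 and 2.07 CPM in WT and 2.64, 2.42, 1.49 and 1.99 CPM in 1b+/-. All 9 libraries outside homozygous-round WT were therefore between 1.49 and 2.64 CPM, which is 38 to 88 counts.

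Coch encodes cochlin, a secreted matrix protein of the inner ear. It stood at 97.2 and 75.2 CPM in WT and 5.45 and 7.46 CPM in 1b-/-, a log2 difference of -3.74 (SE 0.23). In the heterozygous round it stood at 16, 18.9 and 14.1 CPM in WT and 6.93, 9.14, 9.91 and 13.9 CPM in 1b+/-. Each 1b+/- library was below each WT library of that round, the closest pair being 1b+/- replicate 4 and WT replicate 3.

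Impg1 encodes a proteoglycan of the matrix around retinal photoreceptors. It had 155 and 39 counts in WT and 2 and 0 counts in 1b-/-, which is 7.0 and 1.83 CPM against 0.0568 and 0 CPM. The WT libraries differed from each other more than for the other 7 genes, with a coefficient of variation of 82.7%, and WT replicate 1 was the higher one. Relative to library sizes scaled by TMM factors, WT exceeded 1b-/- 149.6-fold, with an interval of 40.9 to 1244 that covers counting error only. The fitted log2 difference was -7.02 (SE 1.18) and ran from -9.93 to -5.76 over 12 alternatives, with -5.76 without WT replicate 1. With 2 counts in 1b-/-, the fitted value depends on the prior count. In the heterozygous round the gene had 4, 4 and 1 counts in WT and 1, 2, 1 and 2 counts in 1b+/-, so that the 9 other libraries were all at or below 4 counts.

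**Figure D2:**
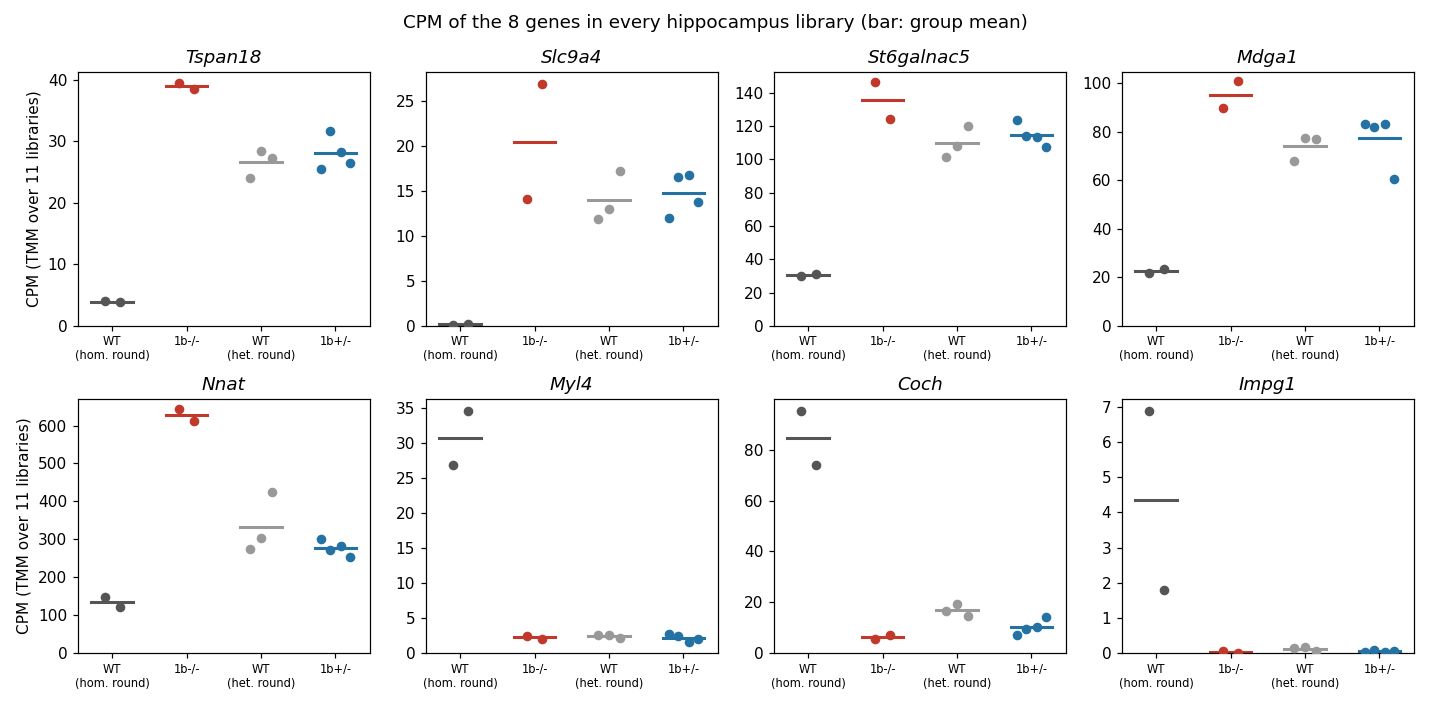
CPM of each of the 8 genes (y axes, linear from 0) in every library by group (x axes), with 1 point for each library and a bar at the group mean. Homozygous-round WT is the lowest group in the 5 panels from Tspan18 to Nnat and the highest in the 3 panels of Myl4, Coch and Impg1. Both 1b-/- points lie above all heterozygous-round points for Tspan18, St6galnac5, Mdga1 and Nnat, by the least for St6galnac5.

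Levels were then compared per length, as mean CPM for each kilobase of merged exons, in heterozygous-round WT. Nnat was the highest at 182, followed by St6galnac5 at 18.3, Mdga1 at 7.88, Coch at 6.46, Slc9a4 at 3.67, Tspan18 at 3.42, Myl4 at 0.53 and Impg1 at 0.0324. In homozygous-round WT the order was Nnat (73.9), Coch (32.6), Myl4 (6.63), St6galnac5 (5.07), Mdga1 (2.40), Impg1 (1.21), Tspan18 (0.50) and Slc9a4 (0.0418). Coch and Myl4 stood next after Nnat there, while in the other WT group Coch was below Mdga1 and Myl4 below Tspan18. Slc9a4 and Tspan18 in the heterozygous round were neighbours that lay within their spread between libraries, with coefficients of variation of 20.1% and 8.40% in WT.

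The study compared each mutant with the WT of its own round, and the same 8 genes can be set beside the other WT group. With scaling over all 11 libraries, the mean of homozygous-round WT lay farther from the mean of heterozygous-round WT than the 1b-/- mean did for 8 of 8 genes, on log2(mean CPM + 0.1). The same held for 49.6% of 14905 genes and for 73.3% of the 524 genes among them that were called in the homozygous comparison. The latter were chosen on the same libraries as the 8 genes, so the count of 8 is a description. For the 8 genes the median absolute distance from heterozygous-round WT was 2.53 for homozygous-round WT and 0.55 for 1b-/-, against 0.40 and 0.41 over all genes. Round, read type, group and, between the WT groups, sex (all female against all male) cannot be told apart in these distances.

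Slc9a4 in homozygous-round WT lay below heterozygous-round WT, at a log2 difference of -5.77, and 1b-/- lay at 0.54. The corresponding log2 differences were -2.73 and 0.55 for Tspan18, -1.85 and 0.31 for St6galnac5, and -1.71 and 0.36 for Mdga1. For these 4 genes the 1b-/- mean was thus nearer to heterozygous-round WT than the homozygous-round WT mean was, but above it. The distances of Slc9a4 and Tspan18 exceeded the median of 0.41 over all genes. Both 1b-/- libraries lay above every heterozygous-round library for Tspan18 (at least 38.4 against at most 31.7 CPM) and Mdga1 (89.9 against 83.3). The same held narrowly for St6galnac5 (124.4 against 123.8), while for Slc9a4 1b-/- replicate 1 lay among them. Nnat differed from heterozygous-round WT on both sides, by -1.30 in homozygous-round WT and 0.91 in 1b-/-, and without WT replicate 3 of the heterozygous round these were -1.09 and 1.12, which left 7 of 8 genes with the WT farther. Myl4 lay at 3.59 in homozygous-round WT and -0.12 in 1b-/-, and Impg1 at 4.36 and -0.76 on few counts. Coch lay at 2.33 in homozygous-round WT and -1.40 in 1b-/-, the largest distance of the 8 genes for 1b-/-.

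**Figure D3:**
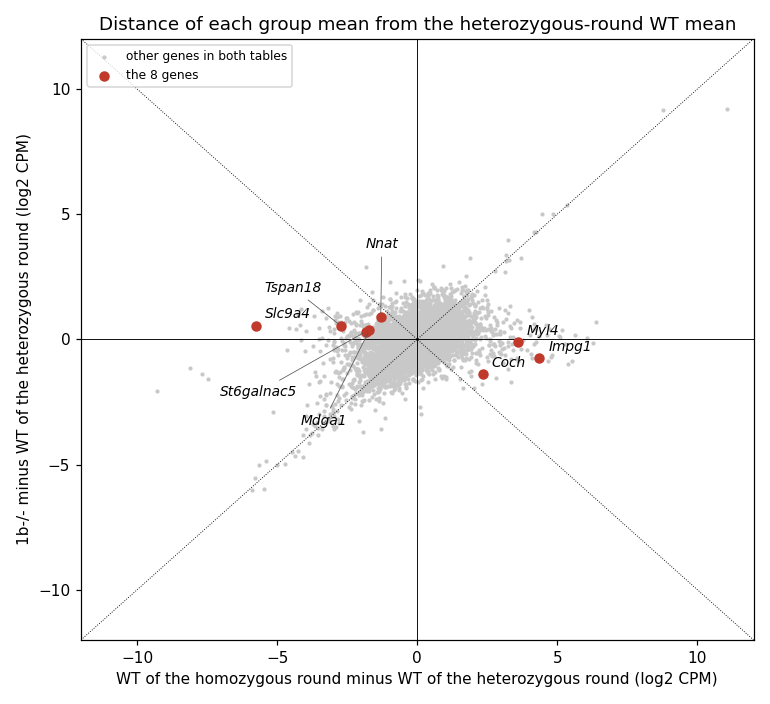
Log2 distance from the heterozygous-round WT mean for the homozygous-round WT mean (x axis) and the 1b-/- mean (y axis), with grey points for genes in both tables and red points for the 8 genes; dotted lines mark equal distance. All 8 red points lie nearer the horizontal axis than the vertical one, with Nnat and Coch closest to a dotted line.

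In the heterozygous comparison, 0 of the 7 genes that could be tested passed an adjusted p of 0.05, and 0 of 14630 genes did (0%, edgeR quasi-likelihood test). Coch was the 1 of the 7 with an unadjusted p under 0.05, against 1649 genes (11.3%) over the table, and the likelihood ratio test and DESeq2 called 191 and 245 genes. The 7 genes had a median absolute log2 fold change of 0.08 against 0.07 over all genes, with 4 higher and 3 lower in 1b+/-. Impg1 did not reach 1 CPM in any library and was not tested.

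For Coch the log2 fold change was -0.71 (SE 0.20, 95% interval -1.16 to -0.26), with adjusted p = 0.251 in edgeR's quasi-likelihood test. It was lower in 4 of 4 1b+/- libraries than in any WT library, and 10.9% of all genes tested had groups that did not overlap. On library totals without TMM factors the Coch groups overlapped, and the count of such genes among the 8 went from 1 to 0. An exact two-sided permutation test over 35 splits gave p = 0.0571, where 0.0286 was the smallest p possible, or 0.457 adjusted over the 8 genes. DESeq2 gave -0.71 with adjusted p = 0.0265. Over 15 alternatives the adjusted p ran from 0.0265 to 0.811 and the log2 fold change from -0.92 to -0.57.

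The striatal list moved with Coch in the same libraries. Its 13 genes summed to 397 to 613 CPM in heterozygous-round WT and to 344 to 395 CPM in 1b+/-, also without overlap, with a median log2 fold change of -0.44 over the 12 genes tested against 0.00 over all genes. None of the 12 passed in edgeR's quasi-likelihood test, while 3 did in the likelihood ratio test and 2 in DESeq2. At an unadjusted p under 0.05 were 8 of the 12, against 11.3% of all genes tested. The smallest p was that of Tac1, the substance P precursor, at -0.93 (SE 0.16, edgeR, adjusted p = 0.0777). The part of this list in the Coch values was not tested.

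For the 4 genes that were far higher in 1b-/- than in its WT and encode surface or Golgi proteins, the heterozygous log2 fold changes were all between 0.06 and 0.08. Their 95% intervals ran from -0.12 to 0.27 for Tspan18, from -0.27 to 0.42 for Slc9a4, from -0.08 to 0.22 for St6galnac5 and from -0.19 to 0.31 for Mdga1, with adjusted p from 0.748 to 0.886 (edgeR). Nnat was at -0.27 (interval -0.56 to 0.03, adjusted p = 0.477, edgeR) and at -0.06 without WT replicate 3. Myl4 was at -0.17 (interval -0.65 to 0.31, adjusted p = 0.799, edgeR), the widest interval of the 7 genes. Exact permutation p-values of the 7 genes other than Coch ran from 0.114, for Impg1, to 0.743.

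**Figure D4:**
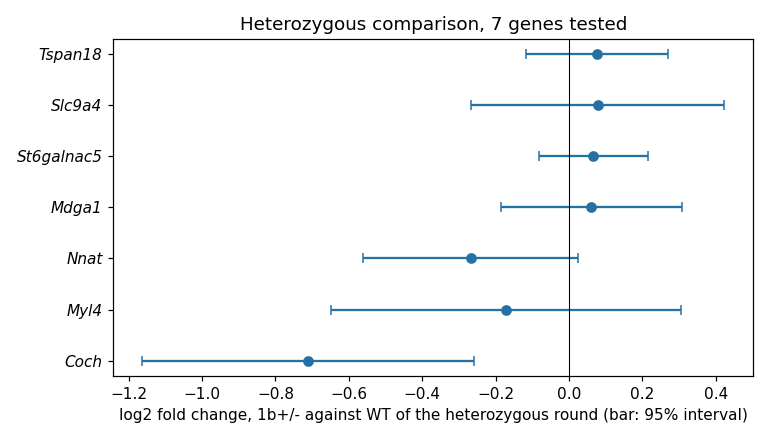
Log2 fold change of 1b+/- against heterozygous-round WT (x axis) for the 7 tested genes (y axis), with points for the estimate and bars for the 95% interval. The interval of Coch, from -1.16 to -0.26, is the only one of the 7 that leaves out 0.

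Among the 7 libraries of the heterozygous round, the 8 genes were also set against each other. Of 28 pairs, 14 had a positive and 14 a negative Pearson's r, from -0.79 to 0.75, and none passed after adjustment over 28 (exact permutation over all pairings, smallest adjusted p = 0.491, and 0.800 for Spearman's rho). The pair of St6galnac5 and Impg1 had p = 0.0413 unadjusted (exact permutation, r = -0.79), and r = -0.65 without the 2 libraries farthest from the median of St6galnac5. The genes that were high or low together in the homozygous round were thus not shown to vary together here.

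Over all 11 libraries, the 3 genes most alike to each of the 8 were found by Pearson's r of log2(CPM + 1) among 13992 genes with a mean of at least 1 CPM. These r values carry the difference between rounds and groups and are a description. Within the 7 heterozygous-round libraries alone, the r of the same 24 pairs ran from -0.01 (Myl4 and Aif1) to 0.97 (Mdga1 and Thsd4). The dentate marker C1ql2 (r = 0.99) was among those nearest to Tspan18, with mean CPM of 1.79 in homozygous-round WT, 73.7 in 1b-/-, 36.1 in heterozygous-round WT and 42.0 in 1b+/-, together with Spink8 and Src. Within the heterozygous round r of Tspan18 and C1ql2 was 0.02. Sec24d, Shisa6 and Tanc1 were nearest to Slc9a4, Mapk8ip3, Src and Spink8 to St6galnac5, and Pkp2, Thsd4 and Kcnn2 to Mdga1. Cib2, Prmt2 and Unc5a were nearest to Nnat.

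On the lower side, Oprk1, the kappa opioid receptor (r = 0.98), Fbxo18 and Tac1 (r = 0.97) were nearest to Coch. Within the 7 heterozygous-round libraries r was 0.83 for Oprk1, 0.92 for Fbxo18 and 0.86 for Tac1. Tac1 went from 101 CPM in homozygous-round WT to 4.72 in 1b-/-, and from 10.7 in heterozygous-round WT to 5.60 in 1b+/-. Lhx8, a transcription factor of basal forebrain cholinergic neurons (r = 0.995), Ppp2r2a and Pou3f4 were nearest to Impg1 (0.62, 0.02 and 0.04 within the heterozygous round), and Lhx8 averaged 6.15 CPM in homozygous-round WT and 0.0444, 0.120 and 0.00895 CPM in 1b-/-, heterozygous-round WT and 1b+/-. Afap1l1, Aif1 and Rspo1 were nearest to Myl4 (0.49, -0.01 and 0.17 within the heterozygous round). Tac1 and Lhx8 are on the striatal and cholinergic lists and Rspo1 on the neocortical one.

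Relatives of the 8 genes were counted from lists of their families. Among 9 other Slc9 exchangers and their regulators tested in the homozygous comparison, 1 was lower and 0 were higher at adjusted p under 0.05, with a median log2 fold change of 0.09 against -0.00 over all genes. That 1 was Slc9a5, a neuronal sodium-proton exchanger (-1.47, SE 0.22, edgeR, adjusted p = 0.0386), opposite in direction to Slc9a4. Slc9a2 was at 2.29 (SE 0.46) and did not pass (edgeR, adjusted p = 0.0645). Of 22 other tetraspanins, Tspan13 was higher at 1.03 (SE 0.12, edgeR, adjusted p = 0.0251), 0 were lower and the median was 0.08.

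None of 18 other sialyltransferases passed in the homozygous comparison in edgeR's quasi-likelihood test (0 calls, median 0.04), with 3 at an unadjusted p under 0.05 and 3 called by DESeq2 and by the likelihood ratio test. Of 7 partners of Mdga1 among neuroligins, neurexins and Mdga2, 0 passed (median 0.21), with 3 at an unadjusted p under 0.05 and 2 called by each of the other tests. Mdga2, the paralog of Mdga1, was at -0.62 (SE 0.13, edgeR, adjusted p = 0.0650). Of 24 other imprinted genes, 3 were lower and 0 higher, with a median of -0.19. These were the zinc finger gene Zdbf2 at -1.09, Usp29 at -0.91 and Inpp5f at -0.78 (edgeR, adjusted p = 0.0307, 0.0416 and 0.0473), all opposite in sign to Nnat. The 6 other myosin light chains held 0 calls in each of these tests (median 0.04). The 3 cochlear and retinal matrix genes tested besides Coch and Impg1 held 0 calls (median 1.18), with 2 at an unadjusted p under 0.05 and 1 called by each of the other tests. DESeq2 called 8 imprinted genes and the likelihood ratio test 7. The share of all genes at an unadjusted p under 0.05 was not counted for the homozygous comparison. Nothing is therefore read from the unadjusted counts of the family lists here or of the region lists below.

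In the heterozygous comparison 0 genes of these family lists passed in edgeR's quasi-likelihood test. The imprinted list had 12 of 24 genes at an unadjusted p under 0.05, against 11.3% of all genes tested. Its median log2 fold change was -0.14 against 0.00 over all genes. It held 5 calls in the likelihood ratio test and 4 in DESeq2, whose totals over all genes are given above. The list was chosen with earlier results of these data known, so these counts are a description. Nnat itself did not pass (-0.27, edgeR, adjusted p = 0.477). In the list the smallest p was that of Usp29 at -0.47 (SE 0.08, edgeR, adjusted p = 0.0777). The other family lists had 0 to 4 genes at an unadjusted p under 0.05 and at most 1 call in either other test.

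Region lists were counted the same way in the homozygous comparison. Of 13 striatal genes tested, 9 were lower and 0 higher (median -4.36), and of 6 cholinergic genes 4 were lower and 0 higher (median -4.76). Of 9 dentate genes, 3 were higher and 0 lower (median 1.79), of 7 CA1 genes 2 were higher and 0 lower (median 1.21), and of 6 CA3 genes 3 were higher and 0 lower (median 1.88). Prox1, a transcription factor of dentate granule cells, was among them at 1.79 (SE 0.14, edgeR, adjusted p = 0.0191). Of 8 neocortical genes 2 were lower, of 5 CA2 genes 1 was lower and 1 higher, and of 5 thalamic and 9 choroid plexus genes 0 passed in edgeR's quasi-likelihood test, the likelihood ratio test or DESeq2, with 1 and 0 at an unadjusted p under 0.05. Without WT replicate 1 of that round, 0 genes passed in the striatal, cholinergic, dentate, CA1 and CA3 lists and in the table as a whole, while the log2 differences of the 8 genes kept their direction without each library.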

How the data were processed

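RNA-seq counts of 11 hippocampus libraries were analysed. Per the labels and the study's methods, the authors made stranded mRNA libraries, mapped them with STAR 2.7.2 on mm9 and deposited raw counts per gene from featureCounts, with no normalization. The strand setting was not given in the sources used here. Columns were matched to samples by library name, since the labels name the 2 tables the other way round from the columns they hold. The 8 genes and all gene lists were chosen with earlier results of these data known. Genes that reached 1 CPM in any library were fitted with edgeR 4.0.16 in R 4.3.3 (TMM factors within a round, quasi-likelihood test, Benjamini-Hochberg adjustment over all genes, threshold 0.05), each mutant against its own WT, genotype alone in the model. Levels across rounds used TMM factors over all 11 libraries and the 23644 shared genes. Single genes were also tested by exact permutation of mean log2(CPM + 1). Intervals on count ratios are 95% exact binomial ones. Genes named besides the 8 were Scn1a, Blcap and the 3 most alike to each gene. From each list, up to 2 with the smallest p in the homozygous comparison and 1 in the heterozygous one were also named. Inpp5f was named after its value was seen, to complete a count. Lamp5 and Fezf2 were named after their values were seen, to show that the neocortical list did not move together. Alternatives were DESeq2 1.42.0, the likelihood ratio test, upper-quartile or RLE factors, no filter or filterByExpr, a term for sex, a joint fit of the 11 libraries and leaving out each library. Library totals alone and a pseudocount of 1 for levels were added after the data were seen. The code was tested on simulated counts. With 20667122 to 36145161 counts per library, 1 CPM is at least 20 counts. Xist and Ddx3y matched the labelled sex in every library.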

Additional observations from a re-analysis of the deposited data

Results flagged for a closer look

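Groups of 4 libraries, which only 1b+/- has, were checked for a library far from the others by Dixon's criterion at 95%, for each of the 8 genes. Mdga1 in 1b+/- was the 1 of 8 that stood out, with 59.0 CPM in replicate 4, the female, against 79.8 to 81.1 CPM in the other 3 libraries. Its gap to the nearest library was 0.94 of the whole range of the group. Chance flags about 1 group in 20. Mdga1 had a log2 fold change of 0.06 with this library and 0.16 without it. Sex cannot be told apart from this library, since it is the only female of its round. It also held the highest thalamic marker sum of its group, at 337 CPM. WT replicate 1 of that round, the lowest of its group for Mdga1 at 65.9 CPM, held the highest thalamic sum of all libraries, at 466 CPM. By contrast, 1b+/- replicate 3, with a raised thalamic sum of 206 CPM, was the highest of its group for Mdga1, at 81.1 CPM. Whether region content set the Mdga1 values was not tested.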

How the results depend on the processing

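The heterozygous comparison called 0 genes in edgeR's quasi-likelihood test (1649 at unadjusted p under 0.05), 44 with no filter, 191 with the likelihood ratio test, 245 with DESeq2 and 0 to 421 with 1 library left out (421 without WT replicate 1, 1 without 1b+/- replicate 3). DESeq2 called 1 of the 8 genes, Coch, and 14 of 15 alternatives called 0. The homozygous comparison called 531 genes, 1029 with no filter, 1829 with the likelihood ratio test, 2144 with DESeq2, 5541 with all 11 libraries in 1 fit and 0 to 693 with 1 library left out (0 without WT replicate 1, 192 without WT replicate 2). With 1 library left out, the heterozygous log2 fold change ran from -0.031 to 0.25 for Slc9a4 and from -0.00055 to 0.16 for Mdga1, both below 0 without WT replicate 1. The log2 difference of Myl4 in 1b-/- from heterozygous-round WT ran from -0.23 to 0.019, above 0 without 1b-/- replicate 2. The causes were not tested. The log2 differences of the 8 genes in the homozygous round kept their direction in all 12 alternatives. The count of genes with homozygous-round WT farther from heterozygous-round WT was 8 in 13 of 14 alternatives and 7 in the other. Leaving out a library can leave 1 in a group of 2, which is then assumed to vary like the other group. No paired analysis was possible because the labels give no number that ties libraries across groups. Depth limits Impg1 in all groups but homozygous-round WT, and Slc9a4 in homozygous-round WT.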
